A study of Mus musculus with 12 samples.

Results

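The 34 genes described here are oligodendrocyte and myelin genes, measured by RNA sequencing in mouse auditory cortex. They were chosen by name as known genes of the lineage, by a rule that used no measured value, although earlier results of these data were known when the list was drawn up. All 34 were found among the 20989 loci of the files, once each, and all 34 passed the filter on low values that left 12032 loci to test. By the stage at which they are used, 27 are genes of mature oligodendrocytes, 4 belong to precursors and committed cells, and 3 are transcription factors of the whole lineage.

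The study compared brain tissue at rest with tissue driven by drugs. Coronal slices of 350 µm were cut from 6 mice aged 4 weeks, of the strain C57bl6/J by the labels, and the hemispheres of each slice were separated. One hemisphere was kept in control aCSF (artificial cerebrospinal fluid) for 1 h. The other spent 1 h in cocktail aCSF, which held 50 µM bicuculline, a blocker of GABA-A receptors, 100 µM norepinephrine, 50 µM carbamoylcholine, an agonist of acetylcholine receptors, 100 µM dopamine, 40 µM ascorbic acid and 100 µM serotonin. By the methods of the study, both hemispheres then rested for another 1 h in aCSF before dissection, so the RNA was not taken at the end of the exposure. Each group therefore held 6 libraries, 1 for each mouse, and every control library had a cocktail library from the same animal. Both groups shared the slicing, the recovery and the dissection of the auditory cortex. The labels of the samples name no genotype, allele or transgene, while slice imaging in the study used H2B::PaGFP transgenic mice, and the sources used here do not give the genotype of the sequenced mice. The tissue was a mixture of all cortical cells. In such bulk tissue, more cells of a type and more RNA per cell cannot be told apart.

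Oligodendrocytes wrap axons in myelin, a stack of membrane that insulates the axon and speeds conduction. They arise from precursor cells that carry the receptor Pdgfra and the proteoglycan Cspg4, pass through a committed stage marked by Gpr17 and Bcas1, and switch on the genes of myelin proteins and lipids under the transcription factors Sox10 and Myrf. In the cortex, precursors stay present through life, and myelination is still under way in young mice.

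The sequences upstream of 3 of the genes are shown because they stand for the stages compared here: Cnp and Mog encode proteins of mature myelin, and Pdgfra marks precursors. Each run is the 250 bases before the gene's start in RefSeq on GRCm38.p6 (mm10), read 5′ to 3′ on the strand of the gene. Capitals mark matches on either strand to CTGGNAC, the core bound by MYRF, or to ACAAAG, a core bound by SOX proteins.

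Cnp, chr11:100574689-100574938, plus strand: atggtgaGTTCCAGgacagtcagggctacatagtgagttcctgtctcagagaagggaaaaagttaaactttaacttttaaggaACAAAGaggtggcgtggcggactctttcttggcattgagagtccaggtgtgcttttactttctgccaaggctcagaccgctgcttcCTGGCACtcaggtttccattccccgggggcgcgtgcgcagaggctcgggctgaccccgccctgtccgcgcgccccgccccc
Mog, chr17:37023399-37023648, minus strand: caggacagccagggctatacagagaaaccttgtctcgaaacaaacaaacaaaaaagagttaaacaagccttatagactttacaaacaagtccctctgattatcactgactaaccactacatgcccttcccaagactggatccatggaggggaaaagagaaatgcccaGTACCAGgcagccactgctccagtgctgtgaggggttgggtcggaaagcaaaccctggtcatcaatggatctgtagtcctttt
Pdgfra, chr5:75152001-75152250, plus strand: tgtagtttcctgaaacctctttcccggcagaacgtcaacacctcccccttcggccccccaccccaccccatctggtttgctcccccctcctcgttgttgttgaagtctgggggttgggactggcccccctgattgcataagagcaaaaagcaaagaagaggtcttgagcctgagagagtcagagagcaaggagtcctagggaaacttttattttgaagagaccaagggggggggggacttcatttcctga

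The Cnp window held both motifs, the Mog window held CTGGNAC, and the Pdgfra window held neither. Upstream windows were matched for 22 of the 34 genes. CTGGNAC lay in 7 of these 22 (31.8%), namely Cnp, Hapln2, Lpar1, Mag, Mog, Ppp1r14a and S1pr5, and in 15.3% of 15332 windows of all genes. ACAAAG was found upstream of 3 of the 22 (13.6%), Cnp, Mag and Mobp, against 14.7% of all windows, and CAGCTG, an E-box that OLIG proteins can bind, upstream of 3 (13.6%), Aspa, Gsn and Hapln2, against 11.9%. These are counts of letters and not of bound sites.

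Values are FPKM (fragments scaled to transcript length and to the mapped fragments of the library), so levels can be compared between genes. The reads behind the FPKM values numbered 10601067 to 19768881 per control library and 13544813 to 17643462 per cocktail library. The number of reads behind a single value of the 34 genes ran from 47 for Ppp1r14a to 53752 for Mbp. The control library of mouse 1 stood apart: its mean correlation with the other control libraries was 0.985, while the medians of the groups were 0.991 and 0.993, and it was the deepest library with the lowest sum of FPKM, 290155. Results are therefore also given without mouse 1. Of 7 choroid plexus markers, a tissue that is rich in Enpp2, 6 were under 1 FPKM in every library.

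Myelin genes were abundant in the control hemispheres, with 1 gene far ahead of the rest. Together the 34 genes made up 0.722% to 0.924% of the FPKM sum in control libraries (median 0.854%), and Mbp alone accounted for 43.7% to 48.4% of their summed FPKM over the 12 libraries. Mbp, which encodes the basic protein that holds the cytoplasmic faces of compact myelin together, ranked 4 among the tested loci. Its control libraries lay between 1085 and 1342 FPKM with a median of 1182 (mean 1199 ± 102, SD, n = 6). The next gene was Cldn11, the claudin of the tight junctions in myelin, at 177 ± 23.8 FPKM (SD, n = 6), so that Mbp was 6.77 times higher and the ranges of the 2 genes did not overlap.

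Other proteins of the myelin sheath followed. Cnp, an enzyme of noncompact myelin, was at 142.6 ± 24.7 FPKM, Mobp, a second basic protein, at 118.5 ± 18.6 FPKM, Mal, a proteolipid of membrane rafts, at 104.1 ± 13.0 FPKM, and Mag, the adhesion protein that faces the axon, at 86.7 ± 10.2 FPKM (SD, n = 6 each). Tspan2, a tetraspanin, was at 56.8 ± 7.41 FPKM and Mog, a protein of the outermost myelin surface, at 39.4 ± 7.24 FPKM. Ermn, a cytoskeletal protein of late oligodendrocytes, was the lowest of this class at 8.24 ± 2.01 FPKM. Levels within the structural class therefore spanned from over 1000 to under 10 FPKM.

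Enzymes of lipids and small molecules were less abundant than the main structural genes. Enpp2, which makes lysophosphatidic acid, was at 66.1 ± 5.25 FPKM, and Car2, a carbonic anhydrase, at 57.5 ± 11.5 FPKM (SD, n = 6 each). Ugt8a, which makes the galactolipids of myelin, was at 25.9 ± 3.81 FPKM, Fa2h, which hydroxylates their fatty acids, at 18.1 ± 3.19 FPKM, and Aspa, which splits N-acetylaspartate, at 6.64 ± 1.79 FPKM. The receptors ran from 16.2 ± 1.67 FPKM for Gpr37, an orphan receptor of differentiating oligodendrocytes, and 14.6 ± 1.35 FPKM for Lpar1, a receptor for lysophosphatidic acid, to 5.42 ± 1.06 FPKM for S1pr5, a receptor for sphingosine phosphate. Among the other mature genes, Plekhb1, which has a pleckstrin homology domain, was at 107.3 ± 10.7 FPKM, and Trf, the iron carrier transferrin, at 78.7 ± 8.80 FPKM. Gsn, the actin-severing protein gelsolin, was at 34.5 ± 4.79 FPKM, Ndrg1, whose loss causes a demyelinating neuropathy, at 26.3 ± 4.30 FPKM, and the membrane protein Tmem88b at 20.6 ± 3.91 FPKM. The remaining mature genes were Evi2a at 9.47 ± 1.78 FPKM, Ppp1r14a, a phosphatase inhibitor, at 7.23 ± 1.51 FPKM, and Hapln2, a link protein of the matrix at nodes of Ranvier, at 3.65 ± 0.897 FPKM.

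By control level, the precursor genes Bcas1, Gpr17, Pdgfra and Cspg4 ranked 14, 22, 29 and 34 among the 34. Bcas1, on in newly formed myelinating cells, was at 36.8 ± 6.90 FPKM, Gpr17, a receptor of the committed stage, at 13.3 ± 2.06 FPKM, Pdgfra, the receptor for platelet-derived growth factor, at 7.13 ± 0.918 FPKM, and Cspg4, the surface proteoglycan of precursors, at 2.98 ± 0.423 FPKM, the lowest level among the 34 (SD, n = 6 each). The transcription factors were unequal. Olig1 was at 71.3 ± 7.19 FPKM, while Sox10 was at 12.8 ± 1.64 FPKM and Olig2 at 9.87 ± 1.35 FPKM. Myrf and Nkx6-2, the transcription factors of the mature stage, were at 13.2 ± 1.4 and 4.80 ± 0.857 FPKM.

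**Figure D1:**
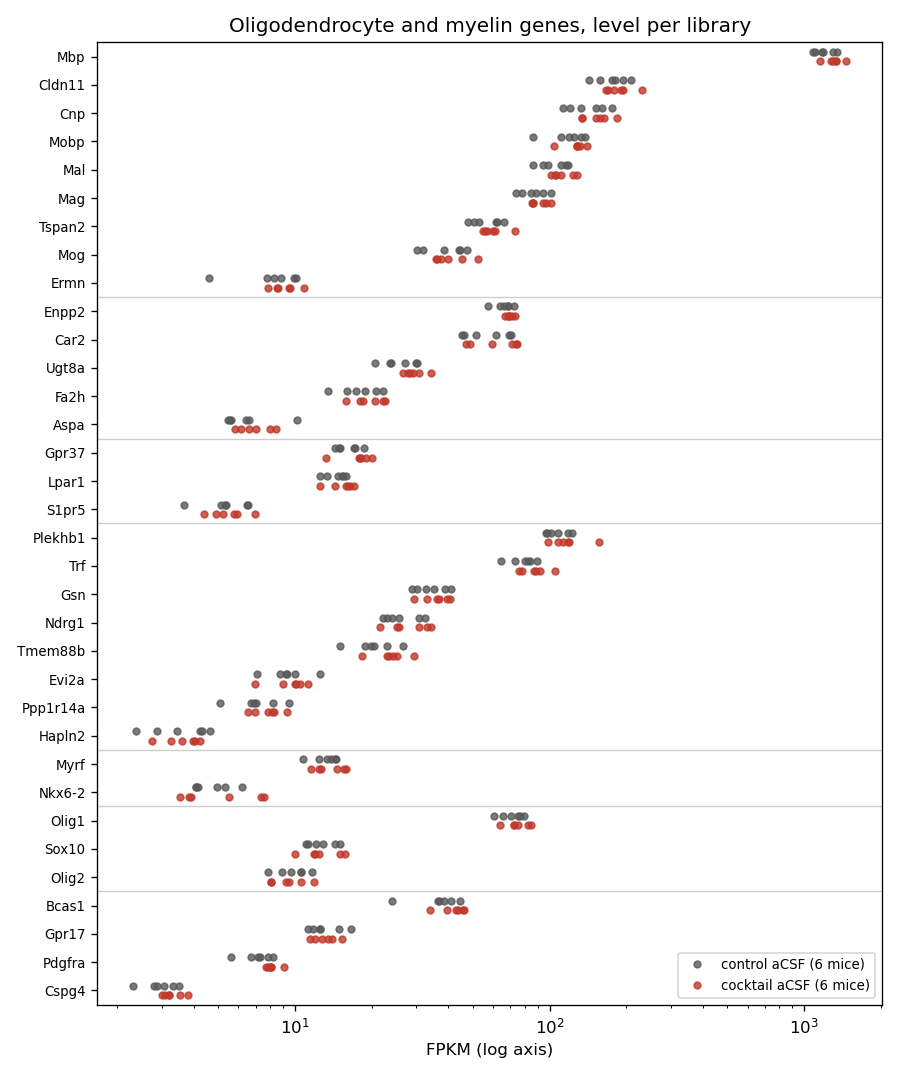
Level of each of the 34 genes in FPKM (log axis) in the 6 control (grey) and 6 cocktail (red) libraries, 1 point per library, ordered by role from structural myelin genes at the top to precursor genes at the bottom. Mbp stands alone above 1000 FPKM, and the grey and red points of every gene overlap.

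In all, 6 of the 34 genes were at 100 FPKM or more in control, 18 lay between 10 and 100 FPKM, and 10 were under 10 FPKM. When the genes were ordered by level, the control ranges of 31 of the 33 neighbouring pairs overlapped. The breaks in the order were between Mbp and Cldn11 and between Tspan2 and Mog. Exons of 14 of the 34 genes overlap those of another gene on GRCm38 (GENCODE), for example Cnp with Dnajc7, Ermn with Galnt5 and Nkx6-2 with Inpp5a on the opposite strand, and Trf with Gm20425 and Evi2a with Evi2 on the same strand. For these genes some reads could belong to the partner, and the strand setting of the FPKM estimate is not given in the sources used here.

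The comparison of cocktail with control hemispheres asked whether 1 h of driven activity, followed by the rest, went with a change in these transcripts. None of the 34 genes passed the test (limma on log2(FPKM + 1) with the mouse as a block, adjusted p under 0.05), where 1.5% of the 12032 loci did (180 loci, with 1.22% called higher), and the lowest adjusted p among the 34 was 0.387. At an unadjusted p under 0.05 there were 7 of the 34, all higher in cocktail, against 8.05% of all loci (5.24% higher). The fitted value was above 0 for 31 of the 34, against 54.4% of all loci, with a median log2 difference of 0.10 for the 34 genes and 0.01 for all loci. The genes share cells and libraries, so these counts are not independent. Control and cocktail ranges overlapped for all 34 genes, while they did not overlap for 0.914% of all loci. With voom on read numbers worked back from each value's confidence interval, 0 of the 34 were called and 5 had an unadjusted p under 0.05. Without mouse 1, 0 were called and 5 had an unadjusted p under 0.05. The median was then 0.08 for the 34 genes and -0.01 for all loci. Without mouse 4, 1 had an unadjusted p under 0.05. Without mouse 2, 14 did. The share of all loci at that cut was read in the main fit only, so these counts have no share of their own setting beside them. The loci called at an adjusted p under 0.05 also moved with the setting. They numbered 118 with voom, 157 without mouse 1, 122 without mouse 2 and 104 without mouse 4.

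The intervals show what sizes the data leave. Over the 34 genes, the 95% intervals of the log2 difference, not adjusted for the number of genes, ran from -0.21, the lower bound for Hapln2, to 0.39, the upper bound for Bcas1. In folds of FPKM + 1 these bounds are 0.867 and 1.31. The upper bound was at most 0.3 for 30 of the 34 genes and above 0.5 for 0.

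**Figure D2:**
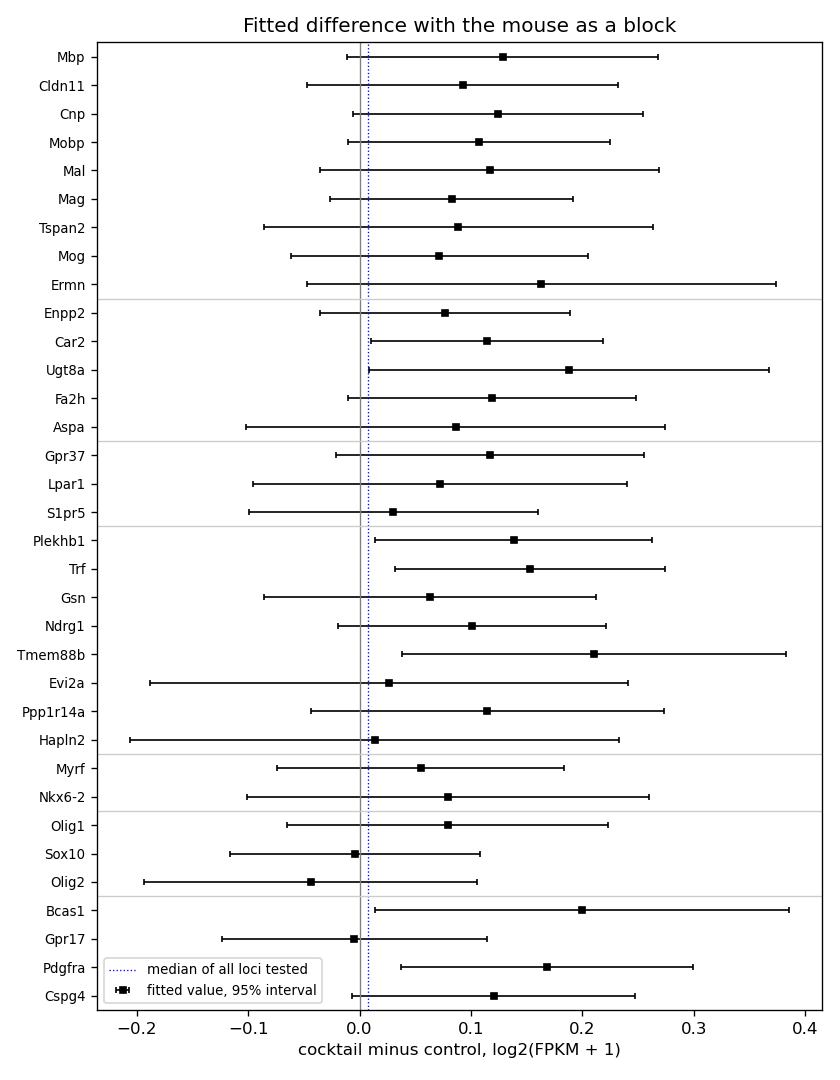
Fitted cocktail minus control difference on the log2(FPKM + 1) scale for each of the 34 genes, with its 95% interval (limma, mouse as a block, 6 mice), and the median of all loci tested as a dotted line. All values lie between -0.04 for Olig2 and 0.21 for Tmem88b, and none passed the adjusted test.

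None of the structural myelin genes passed the test between hemispheres. Mbp lay between 1156 and 1465 FPKM with a median of 1315 in cocktail, against a control median of 1182, a log2 difference of 0.13 ± 0.064 (SE, limma adjusted p = 0.677). It was higher in 5 of 6 mice, and the groups overlapped. All 9 structural genes had fitted values above 0, from 0.07 for Mog to 0.16 for Ermn, and 0 of 9 had an unadjusted p under 0.05. The value of Ermn rested on mouse 1, where the difference was 0.78, since the range over the other mice was -0.07 to 0.12, and the fitted value was 0.04 without mouse 1. Leaving out mouse 1 also lowered the fitted values of Tspan2 from 0.09 to 0.00, of Mal from 0.12 to 0.05, of Cldn11 from 0.09 to 0.04 and of Mog from 0.07 to 0.04.

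Among the enzymes, Car2 and Ugt8a had an unadjusted p under 0.05. Car2 ran from 45.1 to 70.8 FPKM in control (median 56.6) and from 47.0 to 74.4 FPKM in cocktail (median 65.2). The groups overlapped almost fully, but Car2 was higher in cocktail in 6 of 6 mice. Its log2 difference was 0.11 ± 0.048 (SE, limma unadjusted p = 0.0335, adjusted p = 0.524), and flipping the signs of the 6 within-mouse differences (exact permutation test, two-sided) gave p = 0.03125, the smallest that 6 pairs allow. Ugt8a lay between 20.5 and 30.1 FPKM in control and between 26.6 and 34.3 FPKM in cocktail, with a log2 difference of 0.19 ± 0.082 (limma unadjusted p = 0.0419, adjusted p = 0.572), and was higher in 4 of 6 mice. Without mouse 1 it was at 0.12 (limma unadjusted p = 0.133). Neither gene therefore passed the test over all loci. Enpp2, Fa2h and Aspa had fitted values of 0.08, 0.12 and 0.09, which were 0.04, 0.14 and 0.05 without mouse 1.

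The receptors Gpr37, Lpar1 and S1pr5 had fitted values of 0.12, 0.07 and 0.03, and of 0.08, 0.02 and 0.06 without mouse 1. Of the other mature genes, Tmem88b had the highest fitted value of the 34. It lay between 15.0 and 26.6 FPKM in control (median 20.1) and between 18.4 and 29.4 FPKM in cocktail (median 23.7), a log2 difference of 0.21 ± 0.079 (SE, limma unadjusted p = 0.0211, adjusted p = 0.436). It was higher in 5 of 6 mice, and the difference was 0.13 without mouse 1. Trf lay between 64.4 and 89.4 FPKM in control and between 75.6 and 105.4 FPKM in cocktail, a log2 difference of 0.15 ± 0.055 (limma unadjusted p = 0.0176, adjusted p = 0.394). Plekhb1 had a log2 difference of 0.14 ± 0.057 (limma unadjusted p = 0.0319, adjusted p = 0.515). Both were higher in 5 of 6 mice. Gsn, Ndrg1, Evi2a, Ppp1r14a and Hapln2 had fitted values from 0.01 to 0.11.

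Of the transcription factors, Olig1 had a fitted value of 0.08, Sox10 of -0.0041 and Olig2 of -0.04, while Myrf and Nkx6-2 were at 0.05 and 0.08. The 95% intervals of all of these included 0. Sox10 and Olig2 were, with Gpr17, the only genes of the 34 with fitted values below 0, and each of the 3 changed sign when 1 mouse was left out.

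None of the 4 precursor genes passed the test, and not all lay on the same side of 0. Pdgfra was the member with the lowest adjusted p. Its control libraries lay between 5.60 and 8.19 FPKM (median 7.22) and its cocktail libraries between 7.67 and 9.09 FPKM (median 7.98). The groups overlapped, and Pdgfra was higher in cocktail in 6 of 6 mice, with a log2 difference of 0.17 ± 0.060 (SE, limma unadjusted p = 0.0164, adjusted p = 0.387; exact sign-flip permutation p = 0.03125). Its within-mouse difference was 0.44 in mouse 1 and between 0.02 and 0.17 in the others, and without mouse 1 the fitted value was 0.11 (limma unadjusted p = 0.0333). Bcas1 lay between 24.1 and 44.3 FPKM in control and between 34.01 and 45.99 FPKM in cocktail, a log2 difference of 0.20 ± 0.085 (limma unadjusted p = 0.0371, adjusted p = 0.544) that was 0.10 without mouse 1. Cspg4 had a fitted value of 0.12 (limma adjusted p = 0.666), higher in 5 of 6 mice. Gpr17 had a fitted value of -0.0048 (limma adjusted p = 0.992), although it was higher in 5 of 6 mice, since its difference in mouse 3 was -0.24.

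**Figure D3:**
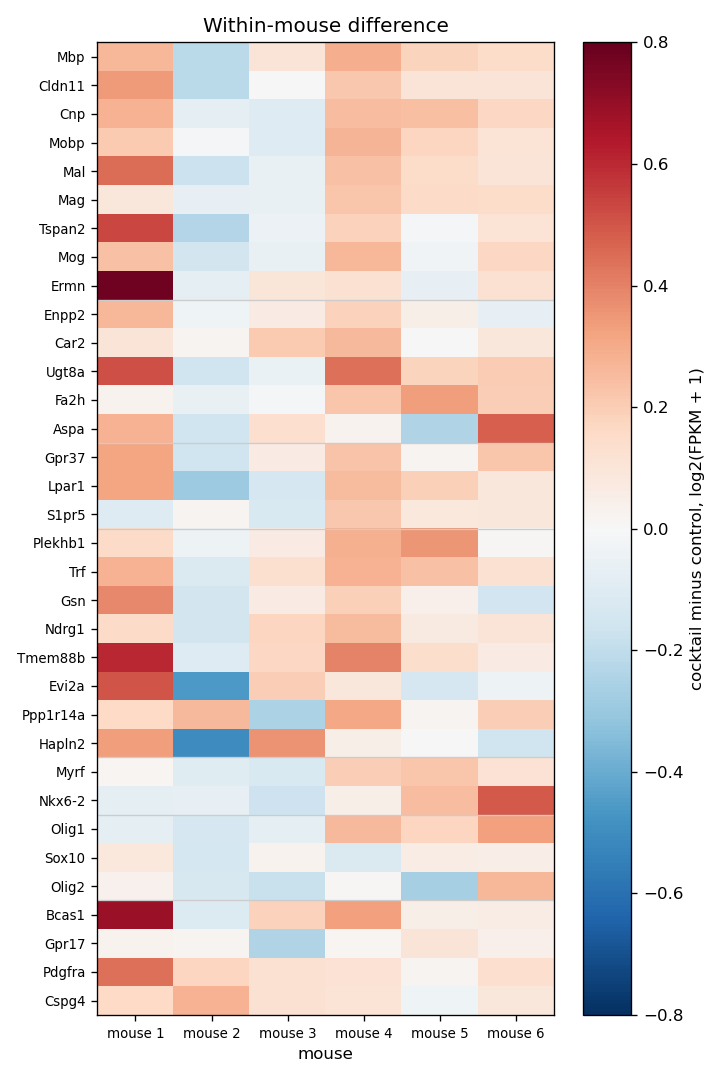
Within-mouse difference, cocktail minus control on the log2(FPKM + 1) scale, for each of the 34 genes (rows, by role) in each of the 6 mice (columns), red for higher and blue for lower in cocktail. The columns of mice 1 and 4 are mostly red and that of mouse 2 is mostly blue among the mature genes.

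Mature genes were not on the same side of 0 in every mouse. Their median within-mouse difference was 0.28 in mouse 1, -0.12 in mouse 2, 0.0022 in mouse 3, 0.23 in mouse 4, 0.11 in mouse 5 and 0.11 in mouse 6. In mouse 4 all 27 were above 0, and in mouse 2 only 3 of 27 were. The median of all loci ran from -0.05 in mouse 5 to 0.10 in mouse 1, a narrower range than that of the mature genes. For the 34 genes together, the number above 0 was 31, 6, 18, 33, 26 and 30 in mice 1 to 6, while the share of all loci above 0 was 64.9%, 50.3%, 58.2%, 42.6%, 37.6% and 43.4%.

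The precursor genes had a median difference above 0 in each of the 6 mice, from 0.04 in mouse 5 to 0.30 in mouse 1. This was not particular to them. The medians of inhibitory neuron (0.03 to 0.13), endothelial (0.04 to 0.10) and leptomeningeal markers (0.11 to 0.34) were also above 0 in every mouse. A list of 15 further precursor genes had a median of -0.08 in mouse 3. Mature minus precursor, the medians differed by -0.02, -0.21, -0.12, 0.12, 0.07 and 0.03 in mice 1 to 6. The mature median was thus below the precursor median in 3 mice and above it in the other 3. In the fit the medians were 0.10 for the 27 mature and 0.14 for the 4 precursor genes. At an unadjusted p under 0.05 were 5 of the 27 and 2 of the 4, all higher in cocktail, against 8.05% of all loci (5.24% higher). Of the 3 marker lists above, the same cut held 3 of 5 leptomeningeal, 1 of 6 endothelial and 0 of 7 inhibitory neuron markers. The lineage factors had a median of -0.0041.

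Markers of other cells were read in the same hemispheres. The median difference of 8 excitatory neuron markers was -0.0058, 0.08, -0.04, -0.14, -0.09 and -0.07 in mice 1 to 6. It was on the other side of 0 from the mature median in all 6 mice. However, it was close to 0 in mouse 1, and the mature median was itself close to 0 in mouse 3. The median of all loci was not 0 either: it was 0.10, 0.0013, 0.02, -0.03, -0.05 and -0.02 in mice 1 to 6. The excitatory and mature medians lay on opposite sides of it in every mouse except mouse 3, where both were below it. In the fit, 3 of the 8 excitatory markers were above 0 and 5 below. The median of 7 inhibitory neuron markers was above 0 in every mouse, at 0.08, 0.09, 0.03, 0.09, 0.06 and 0.13 in mice 1 to 6. The median of 8 astrocyte markers was 0.35, 0.04, 0.09, 0.02, -0.08 and -0.03 in mice 1 to 6, so it was high in mouse 1 but near 0 in mouse 4. In the fit, 0 markers of any of these lists were called, against 1.5% of all loci. The medians were -0.05 for excitatory neurons, 0.08 for 7 inhibitory neuron markers, 0.06 for astrocytes and 0.03 for 9 microglia markers. They were 0.04 for 6 endothelial, 0.07 for 5 mural, 0.14 for 5 leptomeningeal, -0.0056 for 4 striatal and 0.10 for 2 ependymal markers. The excitatory markers summed to 1363 to 1504 FPKM per control library and 1297 to 1477 per cocktail library, the astrocyte markers to 649 to 824 and 771 to 810, and the 34 genes to 2282 to 2827 and 2530 to 3111. The part of differences in tissue makeup between the hemispheres of a mouse was not tested.

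**Figure D4:**
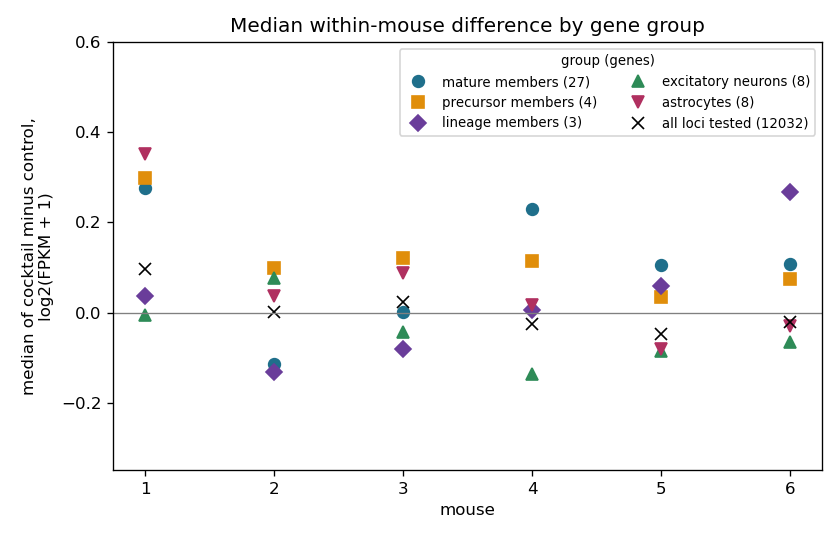
Median within-mouse difference (cocktail minus control, log2(FPKM + 1)) in each of the 6 mice for the mature, precursor and lineage genes, for excitatory neuron and astrocyte markers, and for all 12032 loci tested. The mature genes range from -0.12 in mouse 2 to 0.28 in mouse 1, and the precursor genes are above 0 in every mouse.

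Some of the genes differed between animals. This comparison was chosen after the values were seen. The SD between mouse means was larger than that within mice for 24 of the 34 genes (70.6%), against 48.6% of all loci. A mouse mean averages a control and a cocktail library, while the SD within mice is that of a single library. The SDs are therefore not like measures, and the 48.6% does not mean that animals did not differ over all loci. By the F test of the mouse term in the same limma fit, 4 of the 34 genes differed between mice at an adjusted p under 0.05, against 1.97% of all loci. They were Car2 (adjusted p = 0.0075), Ndrg1 (adjusted p = 0.0320), Sox10 (adjusted p = 0.0475) and Mog (adjusted p = 0.0485).

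Car2 (chr3:14886426-14900770) was at 45.1 and 48.5 FPKM in the control and cocktail hemispheres of mouse 1, 46.2 and 47.0 in mouse 2, 51.4 and 59.4 in mouse 3, 61.9 and 74.4 in mouse 4, 70.8 and 70.9 in mouse 5, and 69.5 and 74.1 in mouse 6. All libraries of mice 4 to 6 were above those of mice 1 to 3, and the highest mouse mean, 71.8 FPKM, was 1.54 times the lowest, 46.6 FPKM. Ndrg1 (chr15:66929318-66969641) had mouse means from 22.8 FPKM in mouse 2 to 33.4 FPKM in mouse 5. Sox10 (chr15:79154913-79164490) ran from 10.5 FPKM in mouse 2 to 15.4 FPKM in mouse 6.

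Mog had the other order. Its levels were 44.4 and 52.5 FPKM in mouse 1, 44.2 and 39.9 in mouse 2, and 47.5 and 45.5 in mouse 3, but 30.0 and 36.3 in mouse 4, 38.3 and 37.5 in mouse 5, and 31.7 and 35.6 in mouse 6. All libraries of mice 1 to 3 were above those of mice 4 to 6. Car2 and Mog thus did not share 1 order of the animals. Both were picked by the F test of the mouse term, so they do not stand for the other myelin genes. The number of the 34 genes that differed between mice depended on the settings, as did the share of all loci. It was 1 with voom, against 0.831% of all loci, and 11 with sample weights, against 4.93%. With 1 mouse left out it ran from 1 to 7. It was 7 without mouse 1, against 3.39% of all loci. It was 1 without mouse 2, mouse 3 or mouse 4 (0.49%, 0.781% and 0.524% of all loci). It was 2 without mouse 5 or mouse 6 (1.45% and 1.13%). Car2 was among the genes called under every alternative that was run. The labels give neither litter nor sex of the mice. Each mouse gave 1 library per group, so differences between animals and between their slices or dissections cannot be told apart.

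**Figure D5:**
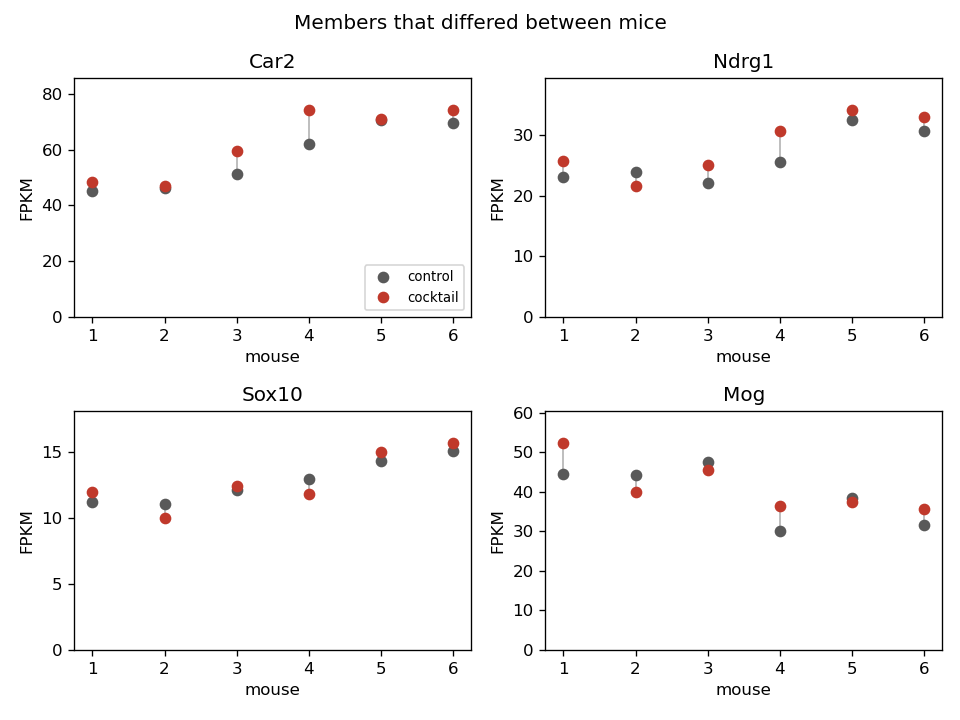
FPKM of Car2, Ndrg1, Sox10 and Mog in the control (grey) and cocktail (red) hemisphere of each of the 6 mice, joined by a line. Car2 is higher in mice 4 to 6 than in mice 1 to 3, Ndrg1 and Sox10 have their highest means in mice 5 and 6, and Mog is higher in mice 1 to 3 than in mice 4 to 6.

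Other genes of the lineage were read from 4 lists chosen by known function. Of 26 further genes of mature oligodendrocytes 24 were tested, of 17 further precursor genes 15, of 12 genes of newly formed oligodendrocytes 12, and of 14 genes of growth factor signalling 11. In each of these lists 0 genes were called in either direction, against 1.5% of all loci, so 0 in lists of 11 to 24 genes is near that share. The medians were 0.07, 0.05, 0.05 and 0.03. At an unadjusted p under 0.05 there were 4 (16.7%), 1 (6.67%), 0 and 2 genes (18.2%), against 8.05% of all loci. Of these genes, 3 of the 4, the 1 and 1 of the 2 were higher in cocktail.

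The mature genes varied together over the 12 libraries to unequal degrees. For each gene, its deviations from the 2 group means were correlated with the mean deviation of the other mature genes. Pearson's r was highest for Trf at 0.940, Mal at 0.852 and Mbp at 0.849, and lowest among the mature genes for Car2 at 0.182 and Nkx6-2 at 0.233. Its median was 0.520 for the mature, 0.483 for the lineage and 0.460 for the precursor genes. The loci outside the 34 with the most similar profile were Tmem63a (r = 0.953), Slc44a1 (0.910), Pde8a (0.875), 2810459M11Rik (0.872), Lxn (0.868), Cd82 (0.863), Nrbp2 (0.860), Unc93b1 (0.858), Klhl25 (0.856) and Arhgef10 (0.856). These values describe 12 libraries of 6 mice that share tissue makeup and depth, and carry no test.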

How the data were processed

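Poly-A RNA of 12 auditory cortex samples was sequenced by the authors as single strand-specific reads of 50 bases. Ribosomal reads were removed with BWA 0.6.1, the rest aligned to mm10 with TopHat 1.4.1 (up to 6 mismatches, 1 placement per read), and FPKM values were estimated with Cufflinks 1.3.0 and deposited by the authors for each library. Their deposited group comparison (HTSeq 0.6.1p1 counts, DESeq2 1.6.3) holds the authors' own fold changes and p-values and was not used here.

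FPKM values were used as deposited. Loci with a mean of at least 1 FPKM entered a limma fit (3.58.1, R 4.3.3) of log2(FPKM + 1), with a variance trend, the mouse as a block and Benjamini-Hochberg adjustment over 12032 loci. Fold changes on this scale understate those of low genes. Reads were recovered from the width of the deposited FPKM intervals: of 36413 values under 20 reads, 82.8% were whole to within 0.05. Pairs came from the same animal. Deviations of same-mouse libraries correlated at 0.216 to 0.407 (6 pairs), those of different mice at -0.42 to 0.445 (30 pairs). The script was tested on simulated data.

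The members, gene lists and tests were chosen with earlier results of these data known. One of the gene lists is not reported here. All members are named. Of the lists, genes past the threshold are named, and so are the 10 loci most like the mature genes. Promoter windows come from RefSeq (GRCm38.p6), exon overlaps from GENCODE M21, and gene coordinates from the files, counted from 1. Alternatives were the pseudocount, filters, scalings, voom, sample weights, no block, and each mouse left out.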

Additional observations from a re-analysis of the deposited data

Results flagged for a closer look

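In groups of 6 values, 9 of 102 groups held a single value far from the other 5 by Dixon's criterion, where chance gives about 5.1 (1 in 20). Of these, 3 were in mouse 1. The cocktail library of mouse 1 had 73.2 FPKM of Tspan2, against 54.6 to 61.1 in the other cocktail libraries. The within-mouse log2 difference of Ermn in mouse 1 was 0.78, against -0.07 to 0.12, and that of Pdgfra was 0.44, against 0.02 to 0.17.

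In the other mice, the cocktail library of mouse 4 had 103.7 FPKM of Mobp, against 128.2 to 140.7, that of mouse 5 had 156.1 FPKM of Plekhb1, against 98.2 to 119.6, that of mouse 2 had 13.3 FPKM of Gpr37, against 17.8 to 20.0, and that of mouse 6 had 9.09 FPKM of Pdgfra, against 7.67 to 8.05. The control library of mouse 5 had 10.2 FPKM of Aspa, against 5.47 to 6.62. Gpr17 had a within-mouse log2 difference of -0.24 in mouse 3, while the remaining differences lay between 0.02 and 0.11.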

How the results depend on the processing

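Under all alternatives 0 of the 34 genes were called, with a lowest adjusted p of 0.11. Without the replicate block 0 were called and 2 had an unadjusted p under 0.05, a setting where the share of all loci at that cut was not read. Of 508 recomputed differences of single genes, 495 kept their direction and side of the threshold. The others changed sign, from values between -0.04 (Olig2) and 0.08 (Nkx6-2): without mouse 1 Gsn became -0.0016, Evi2a -0.0695 and Hapln2 -0.0509; without mouse 2 Sox10 became 0.0229; without mouse 3 Gpr17 became 0.0424, Evi2a -0.0079 and Hapln2 -0.0558; without mouse 4 Sox10 became 0.0180 and S1pr5 -0.0065; without mouse 5 Olig2 became 0.0008; without mouse 6 Nkx6-2 became -0.0030. Evi2a was at -0.0064 with sample weights and Hapln2 at -0.0458 with voom. With 1 mouse left out, the values of these genes ran from -0.0016 to 0.106 for Gsn, -0.0268 to 0.0424 for Gpr17, -0.0222 to 0.0229 for Sox10, -0.1063 to 0.0008 for Olig2, -0.0695 to 0.1229 for Evi2a, -0.0065 to 0.0604 for S1pr5, -0.0030 to 0.129 for Nkx6-2 and -0.0558 to 0.1171 for Hapln2.

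Of the 62 other lineage genes tested in the 4 lists, 0 were called under every alternative. In the main fit 7 had an unadjusted p under 0.05, against 8.05% of all loci. Without the block 1 did, where that share was not read. Genes of the 34 that differed between mice numbered 4, against 1.97% of all loci. They numbered 1 with no filter (0.177% of all loci), 2 at a mean of at least 5 FPKM (1.69%) and 1 with voom (0.831%). With sample weights there were 11 (4.93% of all loci), and at an adjusted p under 0.1 also 11 (6.6%). With 1 mouse left out there were 1 to 7 (0.49% to 3.39% of all loci). Over all loci, 180 were called with the block and 88 without it. The cause of these changes was not tested. Low genes rest on as few as 47 reads, and intervals from 6 mice leave differences of up to 0.39 on the log2 scale.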
